A study of Mus musculus with 8 samples.

Results

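The gene set described here holds 6 genes that carry, take up or metabolise vitamin A: the carriers Ttr and Rbp4, the receptor Stra6 and the enzymes Rdh10, Aldh1a1 and Aldh1a2. They were picked by gene symbol out of 31053 genes in the deposited tables, and all 6 were found. Their levels were measured in single-cell suspensions of mouse brain cortex from 4 groups of mice aged 8 weeks. Lama4-/- mice, which lack the laminin alpha 4 chain of the vascular basement membrane, had their own wild-type (WT) control. Tek-Cre:Lama5-/- mice, in which the laminin alpha 5 chain is deleted by a recombinase under the Tek promoter, had a separate WT control. The Tek promoter is active in the endothelial lineage and also in blood-forming cells, so the deletion is not limited to the brain. Each group was 1 pool of the brains of 3 mice, and 2 samples were deposited per group. The Lama4-/- samples held identical values and were counted as 1 library, which left 7 libraries. They are called Lama4 WT 1 and 2, Lama4 KO, Lama5 WT 1 and 2, and Lama5 KO 1 and 2, and 7 values in a row are in that order. The WT pools of both experiments differ in mice and in experiment, which cannot be told apart. Any batch of processing would go with the experiment. Replicate libraries share a pool, so no spread given here holds the spread between mice.

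In blood, retinol (vitamin A) travels on Rbp4, which binds transthyretin, the product of Ttr, and the membrane receptor Stra6 takes retinol from Rbp4 into cells such as those of the blood-brain barrier. Inside the cell, retinol dehydrogenases such as Rdh10 oxidise retinol to retinaldehyde, and the aldehyde dehydrogenases Aldh1a1 and Aldh1a2 turn retinaldehyde into retinoic acid, which acts on nuclear receptors. Within the brain, Ttr is made by the epithelium of the choroid plexus, and the meninges are a known site of retinoic acid synthesis.

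Of 56961 deposited barcodes, 47239 were kept as cells, with a median of 2915.5 to 6580.5 UMIs (unique molecular identifiers, each counted as 1 captured RNA molecule) per library and 35479306 to 48314458 UMIs per library in all. Clusters were named by marker lists and are called "-like". All 8 endothelial, 8 pericyte, 8 astrocyte, 7 ependymal and 12 choroid plexus markers stood highest in the class of that name. So did 7 of 8 fibroblast markers. The same lists gave the names, so this was largely fixed in advance and is no check of them. The targeted genes were checked first, in endothelial-like cells, in CPM, a gene's UMIs divided by all UMIs of the same cells in that library, on the usual CPM scale. Lama4 had 1 UMI in the Lama4 KO against 927 and 819 in its WT libraries. Lama5 measured 22.4 and 23.9 CPM in the Lama5 KO, and 42.7 and 41.3 CPM in its WT. The deleted parts of both genes are not given in the sources used here, and 3′ tags outside a deleted part check nothing. CPM in these 3′ libraries does not depend on gene length. Intervals in brackets are exact 95% Poisson or conditional binomial intervals for counting error only.

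**Figure D1:**
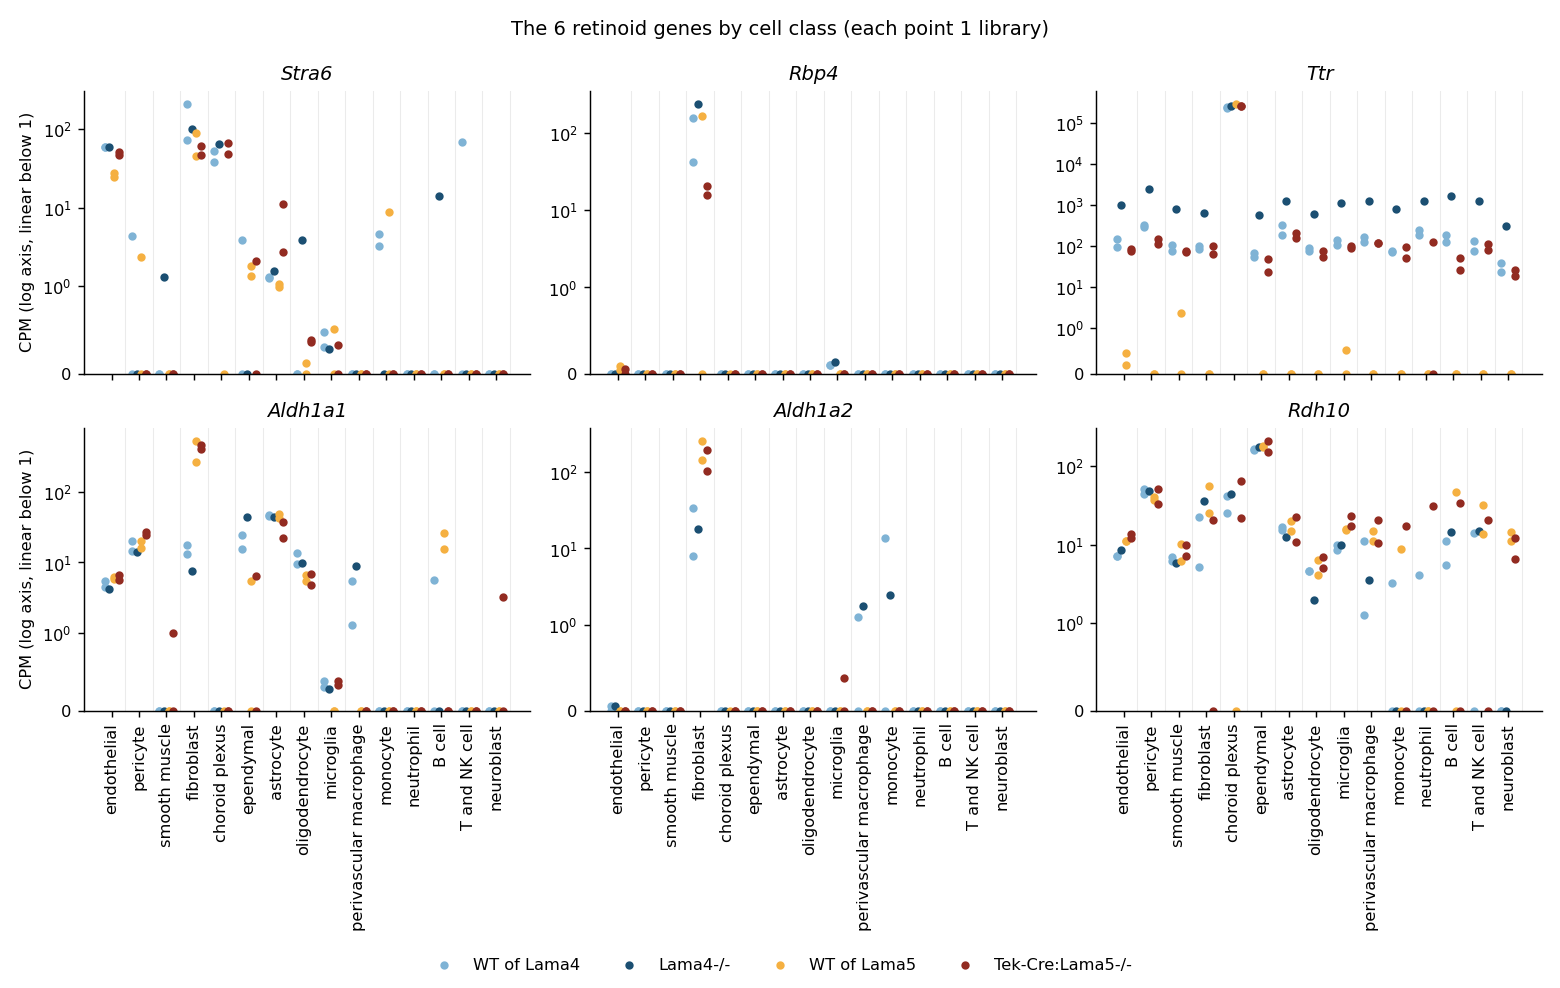
Levels of the 6 genes in CPM (log axis, linear below 1) in 15 cell classes; each point is 1 library and colours mark the 4 groups. Ttr stands between 239753 and 290396 CPM in choroid plexus-like cells, Rbp4 and Aldh1a2 are nearly limited to fibroblast-like cells, Rdh10 is highest in ependymal-like cells, and Stra6 is high in endothelial-like, fibroblast-like and choroid plexus-like cells.

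The 2 carriers came from different cells. Ttr, the most abundant of the 6 genes, had 1138322 UMIs in the cells kept, of which 95.6% lay in 183 choroid plexus-like cells, 0.387% of all cells. In these cells Ttr took 239753 and 248732 CPM in Lama4 WT, 259042 CPM in Lama4 KO, 290396 CPM in the single such cell of Lama5 WT 1, and 259610 and 261131 CPM in Lama5 KO. Lama5 WT 2 had no such cell. Its level within the choroid plexus-like cells thus differed little between libraries, while the number of these cells was 27, 26, 116, 1, 0, 7 and 6.

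The Ttr level of all other cells kept the same order of libraries as that number. Over cells that were not choroid plexus-like, Ttr stood at 148 and 111 CPM in Lama4 WT, 1074 CPM in Lama4 KO, 0.331 and 0.134 CPM in Lama5 WT, and 86 and 81.2 CPM in Lama5 KO. In endothelial-like cells it stood at 150 and 96.4 CPM in Lama4 WT, 999.6 CPM in Lama4 KO, 0.454 and 0.187 CPM in Lama5 WT, and 85.1 and 78.1 CPM in Lama5 KO. In microglia-like cells, which are not known to make it, the values were 140, 105, 1132, 0.512, 0, 102 and 89.0 CPM. Both classes thus held the same order of the 7 libraries. The share of cells with a Ttr UMI was likewise close in both: 62.2% and 62.6% in Lama4 WT 1, 99.3% and 99.1% in Lama4 KO, and 25.4% and 25.1% in Lama5 KO 1, for endothelial-like and microglia-like cells.

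**Figure D2:**
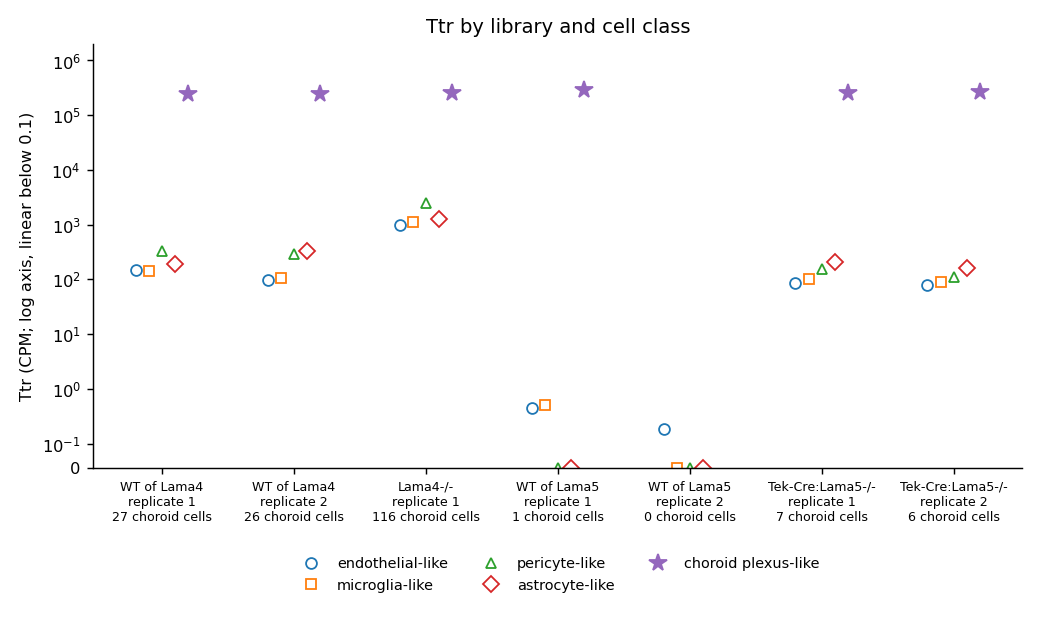
Ttr level in CPM (log axis, linear below 0.1) in 5 cell classes of each of the 7 libraries, with the number of choroid plexus-like cells under each library. The other 4 classes stand at 999.6 to 2499.8 CPM in the Lama4 KO, with its 116 such cells, and under 1 CPM in the 2 Lama5 WT libraries, with 1 and 0.

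In the Lama4 KO, Ttr was 8.04 times (7.78 to 8.30) its WT level in endothelial-like cells, and 4.98 (4.59 to 5.40) in astrocyte-like, 8.02 (7.20 to 8.94) in pericyte-like and 9.35 (7.02 to 12.7) in ependymal-like cells. Among classes of at least 50 cells, its highest level was 2.23 to 4.51 times its lowest in each of the 5 libraries with Ttr in every class. The summed level of 12 other choroid plexus markers over all cells that were not choroid plexus-like did not have the order of Ttr, at 154, 133, 258, 577, 523, 360 and 414 CPM. Oligodendrocyte-like cells alone held 2067 and 2035 CPM of these markers in Lama5 WT, with no Ttr UMI. In choroid plexus-like cells they gave 0.107 to 0.132 UMIs per Ttr UMI. In the Lama4 KO they gave 0.122 (0.103 to 0.142) per Ttr UMI in pericyte-like, 0.123 (0.0976 to 0.154) in perivascular macrophage-like and 0.126 (0.118 to 0.135) in microglia-like cells, so the ratio there was that of the choroid plexus-like cells within counting error or near it. In endothelial-like cells the markers stood at 90.1, 70.3, 179, 50.6, 55.0, 61.0 and 63.0 CPM. Per Ttr UMI that was 0.603 and 0.729 in Lama4 WT, 0.179 in Lama4 KO, 111.5 and 293.5 in Lama5 WT, and 0.716 and 0.807 in Lama5 KO. The summed markers thus did not hold the ratio of choroid plexus-like cells there. A single marker, Enpp2, made up 126 CPM of the 179 CPM in Lama4 KO. Enpp2 stood at 47.3 and 50.5 CPM in Lama5 WT, where Ttr was at 0.454 and 0.187 CPM. Each of the 12 markers, taken alone, stood highest in the Lama4 KO in both endothelial-like and microglia-like cells, as Ttr did. Folr1, for example, stood at 0.689, 0.761, 6.40, 0.182, 0.140, 0.823 and 0.233 CPM in endothelial-like cells. Not every marker was lowest in the Lama5 WT libraries. In Lama5 KO microglia-like cells the ratio of the summed markers to Ttr was 0.386 and 0.366. How far free choroid plexus RNA set the Ttr level of the other classes was not tested.

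In the Lama5 experiment Ttr had 41 to 427 UMIs per KO library and 0 to 2 per WT library in each of the 5 other tested classes. It passed the low-count filter through the KO libraries, so its call there by edgeR (adjusted p under 0.05) followed from the filter and is not read as a result. No other member was called in these classes. Members that passed the low-count filter numbered 3 of 6 in astrocyte-like cells, where 1.04% of 8180 genes were called, 2 in microglia-like cells (14.0% of 9408 genes), 3 in oligodendrocyte-like cells (11.5% of 10862), 2 in pericyte-like cells (0.378% of 6085) and 1 in smooth muscle-like cells (3.59% of 7859). No fold change is given for Ttr against these WT counts. The 1 and 0 choroid plexus-like cells of the Lama5 WT against 7 and 6 in the KO stand beside these values.

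Rbp4 (ENSMUSG00000024990, chr19:38116629-38125281, minus strand, GRCm38 with GENCODE M21 as for all genes below), the plasma carrier of retinol, was detected almost only in fibroblast-like cells, which held 286 of its 300 UMIs in 169 cells. It stood there at 153 and 42.1 CPM in Lama4 WT, 231 CPM in Lama4 KO, 0 and 165 CPM in Lama5 WT, and 15.8 and 20.4 CPM in Lama5 KO. Single cells carried most of it. The highest cell held 53 of 96 UMIs in Lama4 WT 1, 11 of 16 in Lama4 WT 2, 127 of 154 in Lama4 KO and 18 of 18 in Lama5 WT 2. The Lama4 KO level was 2.08 times WT (1.62 to 2.67), and 0.643 times when cells needed 1000 genes and under 10% mitochondrial UMIs, so no direction is read from it. Endothelial-like cells held 4 UMIs of Rbp4 in 26474 cells, and choroid plexus-like cells held 0, which allows up to 3 UMIs.

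Stra6 (ENSMUSG00000032327, chr9:58063788-58153996, plus strand), the retinol receptor, was the member most bound to the endothelium, with 90.8% of its 6794 UMIs in endothelial-like cells, which were 56.0% of all cells. RefSeq (GRCm38.p6) gives the gene 4 start sites, and 1 of their windows (250 bases before to 50 after the start) holds a hexamer of the kind bound by retinoic acid receptors. It is shown here with the window of Aldh1a1 that holds one, because these 2 genes stood in opposite order between capillary-like and vein-like cells. Capitals mark the hexamer; the Stra6 window is chr9:58133825-58134124, plus strand, with AGTTCA 15 bases after the start, and the Aldh1a1 window is chr19:20601718-20602017, plus strand, with GGGTCA on the opposite strand, 49 bases before the start.
Stra6: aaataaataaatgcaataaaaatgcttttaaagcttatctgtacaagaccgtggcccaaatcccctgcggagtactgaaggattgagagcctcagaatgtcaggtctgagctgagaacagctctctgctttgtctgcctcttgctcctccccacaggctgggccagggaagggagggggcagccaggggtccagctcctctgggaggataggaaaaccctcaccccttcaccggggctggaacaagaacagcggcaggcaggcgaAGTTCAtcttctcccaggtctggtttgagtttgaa
Aldh1a1: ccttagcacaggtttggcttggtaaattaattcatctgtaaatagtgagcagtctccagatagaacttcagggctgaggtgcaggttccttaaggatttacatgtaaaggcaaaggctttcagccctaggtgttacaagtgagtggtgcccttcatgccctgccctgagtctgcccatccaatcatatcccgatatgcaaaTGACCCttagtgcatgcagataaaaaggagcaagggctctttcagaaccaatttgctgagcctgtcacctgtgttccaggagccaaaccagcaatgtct
The hexamers searched on both strands were the consensus AGGTCA and the variants AGTTCA, then GGGTCA, and lastly GGTTCA, with direct repeats of them at spacings of 1, 2 or 5 bases. Of the 9 windows of Stra6, Rbp4, Aldh1a1 and Aldh1a2, 3 held a hexamer and none a direct repeat. Of 32851 windows of 300 bases in RefSeq, 43.7% held a hexamer and 0.588% a direct repeat. A match is a description of the letters, and the data here do not bear on binding.

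Stra6 levels in endothelial-like cells were 60.2 and 58.8 CPM in Lama4 WT, 59.1 CPM in Lama4 KO, 27.7 and 24.3 CPM in Lama5 WT, and 47.4 and 51.2 CPM in Lama5 KO. The Lama5 WT libraries were low and the other 5 did not overlap with them. The Lama5 KO stood at 1.89 times (1.75 to 2.04) its WT, by summed counts. On the normalised scale of edgeR the log2 fold change was 1.00, and 0.91 to 1.10 when 1 library was left out. The set was chosen with this difference known, so it is described without a test; 19.3% of 13181 genes were called in that comparison. The Lama5 WT stood at 0.437 times (0.407 to 0.470) the Lama4 WT, and the Lama4 KO at 0.992 times (0.92 to 1.07) its own WT. The KO level of the Lama5 experiment therefore lay between those of the WT pools.

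The share of endothelial-like cells with a Stra6 UMI was 29.3%, 27.7%, 24.2%, 9.57%, 8.44%, 14.0% and 13.9%, at median depths of 2604 to 5918 UMIs. In microglia-like cells it was 0% to 0.358%, at medians of 2994 to 7481 UMIs. With every cell thinned to 2000 UMIs, which left 2074 to 4295 endothelial-like cells per library, the shares were 12.7%, 12.2%, 10.8%, 5.38%, 5.22%, 9.24% and 9.64%, and at most 0.122% in microglia-like cells. The order of the groups was thus that of the CPM, and the gap between the experiments shrank with depth made equal.

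Endothelial-like cells were divided into sub-clusters within each experiment, named artery-like, capillary-like or vein-like by marker lists that left out the 6 genes. A library held 316 to 706 artery-like, 1067 to 2956 capillary-like, 202 to 255 vein-like and 579 to 1196 unassigned cells. Among these 3 zones Stra6 stood highest in capillary-like cells, at 90.9 and 91.2 CPM in Lama4 WT, 81.6 CPM in Lama4 KO, 33.6 and 29.3 CPM in Lama5 WT, and 57.0 and 57.8 CPM in Lama5 KO. Artery-like cells had 28.5, 31.3, 44.3, 15.3, 12.7, 32.9 and 36.6 CPM. Vein-like cells had 20.8, 24.3, 14.1, 5.26, 5.94, 13.1 and 17.6 CPM. Unassigned cells had 88.7, 78.3, 81.4, 44.9, 39.6, 70.3 and 75.8 CPM, above capillary-like cells in the 4 Lama5 libraries. Among the named zones the order capillary, artery, vein held in 7 of 7 libraries, although artery over vein was 1.29 in Lama4 WT 2, with an interval of 0.992 to 1.68 that includes 1. Capillary-like cells held 3.28 to 6.38 times the vein-like level (median 4.38) and 1.58 to 3.18 times the artery-like level (median 2.19).

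**Figure D3:**
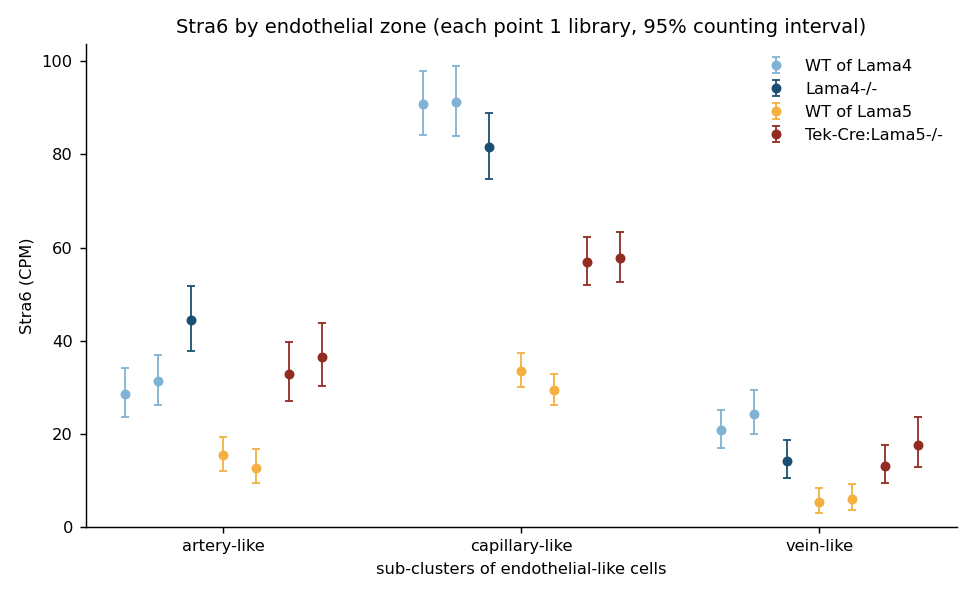
Stra6 level in CPM in artery-like, capillary-like and vein-like sub-clusters; each point is 1 library with its 95% counting interval. Of the 3 zones, capillary-like cells are highest in every library, and in each zone the Lama5 WT libraries are the lowest.

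Raw shares of cells with a Stra6 UMI did not show that order; vein-like cells had median depths of 11045 to 14619 UMIs against 2368 to 5210 in capillary-like cells. In Lama4 WT 1, for example, 26.9% of vein-like and 30.9% of capillary-like cells had a Stra6 UMI. After thinning to 2000 UMIs the shares were 6.07% and 14.2%. Capillary-like cells had the highest thinned share of the 3 zones in all 7 libraries, from 5.41% to 14.4%, while vein-like cells ranged from 0.797% to 7.46% and artery-like cells from 1.97% to 7.78%. Vein-like exceeded artery-like cells in both Lama4 WT libraries by this measure, against the CPM, so no order is read between these zones from the shares.

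The difference between the Lama5 KO and its WT was present in each zone. The ratio was 1.83 (1.65 to 2.02) in capillary-like, 2.46 (1.96 to 3.1) in artery-like and 2.69 (1.81 to 4.07) in vein-like cells. Each zone also differed between the WT pools, where the Lama5 WT stood at 0.345 (0.313 to 0.380), 0.471 (0.376 to 0.587) and 0.251 (0.172 to 0.357) times the Lama4 WT. Zones were named within each experiment, so a zone need not hold like cells in both. Over WT and KO, capillary-like sub-clusters held 67.4 to 152 CPM in the Lama4 experiment and 29.6 to 56.7 CPM in the Lama5 experiment. What part the make-up of zones has in these ratios was not tested. In the Lama4 KO the zones went apart: the artery-like ratio to WT was 1.48 (1.21 to 1.81), the capillary-like ratio 0.896 (0.807 to 0.994) and the vein-like ratio 0.629 (0.452 to 0.860). These are values of 1 KO library with no replicate check, and the differences between zones were not tested.

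Outside the endothelium most Stra6 UMIs lay in 2 small classes, with 250 in choroid plexus-like and 211 in fibroblast-like cells. In fibroblast-like cells it stood at 73.3 and 208 CPM in Lama4 WT, 102 CPM in Lama4 KO, 89.5 and 45.8 CPM in Lama5 WT, and 47.4 and 61.2 CPM in Lama5 KO, with 52 of the 79 UMIs of Lama4 WT 2 in 1 cell. In choroid plexus-like cells it stood at 38.5 and 52.5 CPM in Lama4 WT, 64.4 CPM in Lama4 KO, and 48.4 and 66.1 CPM in Lama5 KO. These levels overlap those of endothelial-like cells, so per UMI the 3 classes cannot be ordered. Unnamed cells held 103 Stra6 UMIs, astrocyte-like cells 15, T and NK cell-like cells 13 (all in 1 cell), microglia-like cells 12 and oligodendrocyte-like cells 7. Pericyte-like cells held 4 and smooth muscle-like cells 2.

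Rdh10 (ENSMUSG00000025921, chr1:16105774-16133734, plus strand), which makes retinaldehyde from retinol, stood highest in ependymal-like cells, the ciliated lining of the ventricles. There it measured 160 and 164 CPM in Lama4 WT, 174 CPM in Lama4 KO, 180 and 176 CPM in Lama5 WT, and 206 and 149 CPM in Lama5 KO, in 25 to 50 cells per library. Neither KO differed from its WT beyond counting error: the ratio was 1.07 (0.831 to 1.39) for Lama4 and 0.972 (0.782 to 1.21) for Lama5. Pericyte-like cells followed with 33.0 to 51.3 CPM, and choroid plexus-like cells overlapped them with 22.0 to 64.5 CPM in the 5 libraries with more than 1 such cell. Astrocyte-like (10.8 to 22.6 CPM) and microglia-like cells (8.67 to 23.0 CPM) were lower and overlapped each other.

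In endothelial-like cells Rdh10 stood at 7.09 and 7.23 CPM in Lama4 WT, 8.55 CPM in Lama4 KO, 11 and 11.2 CPM in Lama5 WT, and 13.5 and 12.2 CPM in Lama5 KO. Both KOs lay above their own WT, at 1.20 times (0.970 to 1.47) and 1.16 times (1.02 to 1.32), and the Lama5 WT stood at 1.55 times (1.34 to 1.81) the Lama4 WT. By vessel zone, vein-like cells had 7.31, 9.47, 10.4, 17.0, 16.3, 20.5 and 18.8 CPM and capillary-like cells 6.26, 7.84, 8.99, 9.81, 10.5, 12.8 and 11.1 CPM. Vein-like cells were above capillary-like cells in 7 of 7 libraries, with a median ratio of 1.55; the interval left out 1 in the 4 libraries of the Lama5 experiment and included it in the 3 of the Lama4 experiment. Artery-like cells, at 5.23 to 12.5 CPM, overlapped the capillary-like range, and in Lama4 WT 1 they stood above vein-like cells (8.16 CPM) within counting error. In other tested classes Rdh10 was not called in the Lama5 KO (edgeR adjusted p 0.230 in microglia-like, 0.585 in oligodendrocyte-like, 0.927 in pericyte-like and 0.996 in astrocyte-like cells), with log2 fold changes of 0.44, 0.27, 0.20 and -0.015.

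Aldh1a1 (ENSMUSG00000053279, chr19:20492715-20643465, plus strand), which makes retinoic acid, was spread over several classes. Astrocyte-like cells held 45.4 and 48.1 CPM in Lama4 WT, 44.8 CPM in Lama4 KO, 48.6 and 42.6 CPM in Lama5 WT, and 37.8 and 22.6 CPM in Lama5 KO. The Lama5 KO was lower in 2 of 2 libraries but was not called (log2 difference -0.60 with an SE of 0.330, adjusted p by edgeR 0.430), from 14 and 10 UMIs. Pericyte-like cells held 13.9 to 27.5 CPM and oligodendrocyte-like cells 4.75 to 13.8 CPM; in the latter the log2 fold change of the Lama5 KO was 0.014 (edgeR adjusted p 0.984), a sign that other settings turn. In ependymal-like cells the Lama4 KO stood at 44.7 CPM against 25 and 15.8 CPM, a ratio of 2.25 (1.20 to 4.33) from 28 and 18 UMIs.

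Among the 3 named endothelial zones Aldh1a1 stood highest in vein-like cells of 6 libraries. Vein-like cells had 11.1 and 15.7 CPM in Lama4 WT, 4.22 CPM in Lama4 KO, 20.7 and 21.7 CPM in Lama5 WT, and 13.4 and 18.4 CPM in Lama5 KO. Capillary-like cells had 3.13, 3.92, 4.98, 5.59, 5.70, 6.72 and 7.86 CPM, and artery-like cells had at most 2 UMIs in any library. Unassigned cells had 0.300 to 6.35 CPM, with the highest value in the Lama4 KO, above its vein-like cells. Their sub-cluster 10 of the Lama4 experiment held 29.8 CPM over WT and KO, against 16.5 and 2.91 CPM in the vein-like sub-clusters. In the Lama5 experiment capillary-like sub-cluster 2 held 12.6 CPM over WT and KO. The other capillary-like sub-clusters of at least 50 cells held 0.535 to 3.70 CPM there. Sub-cluster 2 shared leading genes with the unassigned sub-cluster 10, so capillary-like values need not cover like cells in both experiments. The order vein, capillary, artery held in 6 of 7 libraries, and in the Lama4 KO vein-like and capillary-like cells could not be told apart (capillary over vein 1.18, 0.618 to 2.35). For Stra6, by contrast, capillary-like cells stood above vein-like cells in all 7.

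**Figure D4:**
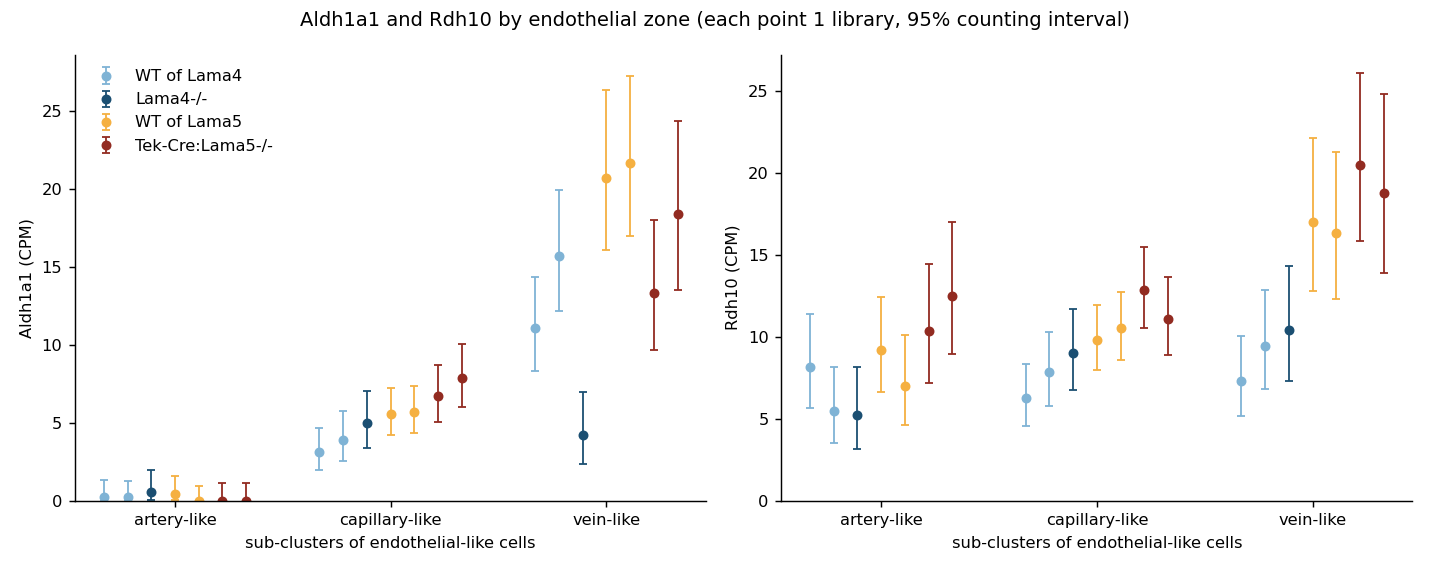
Aldh1a1 (left) and Rdh10 (right) in CPM in artery-like, capillary-like and vein-like sub-clusters; each point is 1 library with its 95% counting interval. Aldh1a1 is near 0 in artery-like cells and highest in vein-like cells except in the Lama4 KO, and Rdh10 is higher in vein-like than in capillary-like cells of each library.

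The low vein-like value of the Lama4 KO was 0.320 times WT (0.174 to 0.548), from 15 against 124 UMIs. Over all endothelial-like cells the ratio was 0.828 (0.619 to 1.09). The vein-like cells of the Lama4 experiment were sub-clusters 5 and 11. Sub-cluster 5 held 16.0 and 23.7 CPM in WT and 7.16 CPM in the KO, and sub-cluster 11 held 3.51 and 3.99 CPM in WT and 1.15 CPM in the KO. The KO was lower in both of these. Unassigned sub-cluster 10, which had vein and capillary markers among its leading genes, held 31.3 and 16.3 CPM in WT and 38.8 CPM in the KO. These came from 11, 6 and 19 UMIs in 62, 66 and 98 cells. Whether cells shifted between sub-clusters was not tested. Vein-like cells of the Lama5 KO stood at 0.736 times WT (0.559 to 0.965), and all its endothelial-like cells at 0.996 times (0.828 to 1.20).

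Fibroblast-like cells as a class held both aldehyde dehydrogenases, and here the experiments differed far more than either KO from its WT. Aldh1a1 stood at 17.5 and 13.1 CPM in Lama4 WT and 7.49 CPM in Lama4 KO, but at 268 and 531 CPM in Lama5 WT and 474 and 408 CPM in Lama5 KO. Aldh1a2 (ENSMUSG00000013584, chr9:71215789-71296243, plus strand), the enzyme known from the meninges, stood at 33.5 and 7.89 CPM in Lama4 WT, 18.0 CPM in Lama4 KO, 141 and 247 CPM in Lama5 WT, and 189 and 102 CPM in Lama5 KO. The Lama5 WT over the Lama4 WT was 26.6 (15.4 to 48.7) for Aldh1a1 and 8.51 (4.98 to 14.8) for Aldh1a2. The Lama5 KO over its WT was 1.06 (0.725 to 1.52) and 0.746 (0.395 to 1.35). Fibroblast-like cells held 91 of all 108 Aldh1a2 UMIs.

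The fibroblast-like cells of the experiments also differed in markers of the class. The widest ratio was that of the transporter gene Slc6a13. It stood at 944 CPM over the 52 cells of the Lama5 experiment and 4.78 CPM over the 117 cells of the Lama4 experiment. The other markers were also higher in the Lama5 experiment, by less, except Col1a1, at 584 against 638 CPM. The cells are thus not of the same make-up. What part this has in the difference of the 2 enzymes was not tested. In the Lama5 experiment 35 of 52 cells had an Aldh1a1 UMI and 25 an Aldh1a2 UMI. Both were held by 23 cells, where the product of the 2 shares gives 16.8 cells. In the Lama4 experiment 13 and 14 of 117 cells had one, and 2 cells held both, where the product gives 1.56. There 10 of the 14 Aldh1a2 cells had Stra6, and 10 of the 22 Rbp4 cells had Rdh10, where the products give 3.83 and 3.57. These pairs were picked as the largest overlaps. Stra6 was held with Rbp4 by 2 cells and with Rdh10 by 2, where the products give 6.02 and 5.20. Fibroblast-like cells had median depths of 4561.5 and 12353 UMIs in the Lama5 and Lama4 experiments. The lower shares of the 2 enzymes were thus found at the higher depth.

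Other genes of the pathway were taken from a list of 42, of which 23 passed the low-count filter in endothelial-like cells. The list was drawn up with earlier results of these data known, so its counts are a description. The p-values of its genes, here and in the other classes, carry the same limit and are read as a description too. For the Lama5 KO 4 were called higher and 2 lower (edgeR quasi-likelihood test, Benjamini-Hochberg adjusted p under 0.05), and 17 were not called. That is 26.1% of those tested, where 19.3% of all genes were called. The 4 and the 26.1% include Rbp7, whose call followed from the low-count filter, so no excess over 19.3% is read. The list's median log2 fold change was 0.035 against -0.0012 for all genes. Cyp26b1, which breaks down retinoic acid, stood at 1.97 and 2.39 CPM against 0.954 and 0.983 CPM (log2 difference 1.24 with an SE of 0.276, adjusted p by edgeR 0.00110). Rbp7, a cellular retinol carrier, had 24 and 21 UMIs against 4 and 1; it passed the filter through the KO libraries, so its call is given no fold or p. Tgm2, a transglutaminase and retinoic acid target, was higher by 0.098 on the log2 scale (SE 0.0302, edgeR adjusted p 0.0193). Cyp26b1 and Rbp7 were higher in 2 of 2 KO libraries, while the CPMs of Tgm2 overlapped (164 and 167 CPM against 160 and 167 CPM). DESeq2 called neither Cyp26b1 nor Tgm2 and gave no adjusted p for Rbp7.

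The lower genes were Zbtb16 and Rdh14. Zbtb16, a transcriptional repressor listed as a retinoic acid target, measured 71.0 and 70.2 CPM in Lama5 KO and 110 and 104 CPM in WT (log2 difference -0.52 with an SE of 0.0387, adjusted p by edgeR 3.94e-12), and at 52.8 CPM in Lama4 KO against 85.7 and 95.8 CPM. Rdh14, a retinol dehydrogenase, had a log2 difference of -0.26 with an SE of 0.0693 (adjusted p by edgeR 0.00691) and was not called by DESeq2. The nuclear receptor gene with most UMIs, Ppard, had -0.023 (SE 0.0440, edgeR adjusted p 0.789), and the dehydrogenase Adh5 0.039 (SE 0.0377, edgeR adjusted p 0.538).

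In microglia-like cells 2 of 12 tested list genes were called, both higher, beside 14.0% of all genes: Adh5 (log2 difference 0.43 with an SE of 0.128, adjusted p by edgeR 0.0117) and Rdh11 (0.80, SE 0.265, edgeR adjusted p 0.0280). In oligodendrocyte-like cells 1 of 11 was called, beside 11.5% of all genes. It was Zbtb16, with a log2 difference of -0.30 with an SE of 0.0654 (adjusted p by edgeR 0.000968) and 65.1 and 61.4 CPM against 80.6 and 82.1 CPM. DESeq2 called none of these 3. In astrocyte-like (13 tested), pericyte-like (8) and smooth muscle-like cells (15) edgeR called 0 list genes and DESeq2 0, and 3, 0 and 0 of them had an unadjusted p under 0.05.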

How the data were processed

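The authors deposited filtered UMI counts per gene and cell for 8 samples, made with 10x 3′ v3 libraries and Cell Ranger 3.1.0, per the file headers; the mm10 build and Seurat 3.1 are named in the submitters' processing notes. Cells with under 500 genes or over 15% mitochondrial UMIs were removed, as were called doublets (0.8% per 1000 cells). Cells were clustered (2000 variable genes, 30 components, 15 neighbours, Leiden resolution 1, igraph 0.11.9) without the 6 genes, the retinoid list, Lama4, Lama5 and sex-linked genes. Clusters were named from marker lists (15 classes, 3386 cells unnamed), and endothelial-like sub-clusters from zone markers. Libraries shared 5 to 23 barcodes pairwise. Names rebuilt this way may differ from those of the study.

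UMIs were summed per library and class. Classes with at least 50 cells in each of the 4 Lama5 libraries were tested with edgeR 4.0.16 (quasi-likelihood, TMM, Benjamini-Hochberg over all genes, threshold 0.05; R 4.3.3), with DESeq2 1.42.0 as an alternative. The procedure was tested on simulated data. Libraries of 1 pool carry no spread between mice, so p-values compare pools. The Lama4 KO has 1 library and no test. The members and gene lists were chosen with earlier results of these data known. Members in endothelial-like cells, and Ttr in the Lama4 KO, are thus given without a test. The p-values of list genes are given as a description for the same reason. Other genes were named where called in a tested class, where highest in counts in their role, or as most alike to a member. Alternatives were DESeq2, other size factors, no low-count filter, stricter cell filters, doublets kept, another clustering resolution, totals without a few abundant genes, a replicate block and each library left out. 1 gene of the retinoid list is counted in the list but is not reported here.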

Additional observations from a re-analysis of the deposited data

Results flagged for a closer look

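In 3 cases both Lama5 KO libraries stood above their WT libraries and the single Lama4 KO library stood below its own; the difference between the experiments was not tested. Stra6 in capillary-like cells was 0.896 times WT in the Lama4 KO and 1.83 times WT in the Lama5 KO, as ratios of mean CPM. Stra6 in vein-like cells was 0.625 and 2.74 times WT. Rdh10 in artery-like cells was 0.768 and 1.41 times WT. From summed counts the Rdh10 ratios were 0.771 (0.434 to 1.31) and 1.40 (0.995 to 1.97), and both intervals include 1.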

How the results depend on the processing

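Of 695 values under alternatives for 76 results, 620 kept their direction and call or stayed within the spread, 14 lost a call, 51 moved and 10 reversed. The number of genes called by DESeq2, against that by edgeR, was 42 against 85 in astrocyte-like, 971 against 2538 in endothelial-like, 418 against 1320 in microglia-like, 302 against 1247 in oligodendrocyte-like, 6 against 23 in pericyte-like and 103 against 282 in smooth muscle-like cells. With doublets kept they were 39 in astrocyte-like, 923 in pericyte-like and 514 in smooth muscle-like cells; without the low-count filter 170 in astrocyte-like and 46 in pericyte-like cells; with the stricter cell filter 1142 and 10; at resolution 2, 40 in pericyte-like cells. Leaving out 1 library gave 34 to 219 in astrocyte-like, 1974 to 2163 in endothelial-like, 849 to 1019 in microglia-like, 852 to 902 in oligodendrocyte-like, 22 to 32 in pericyte-like and 163 to 269 in smooth muscle-like cells. Replicate numbers did not pair the samples (correlations -0.075 to 0.022); with the replicate number as a block the counts were 104, 2508, 1414, 1401, 60 and 353 in the same order. With doublets kept, Stra6 artery over vein moved from 2.14 to 2.88 and Aldh1a1 vein over capillary from 3.54 to 4.87. The Lama4 KO over WT ratio of Ttr in endothelial-like cells was 6.68 to 10.4 with 1 WT library left out. Some values of members that were not called reversed. The log2 fold change of Rdh10 in astrocyte-like cells was 0.56 with the stricter filter and -0.67 to 0.36 with 1 library left out. That of Aldh1a1 in oligodendrocyte-like cells was -0.0035 without the low-count filter, -0.10 with the stricter filter and -0.25 to 0.25 with 1 library left out. That of Rdh10 with 1 library left out was -0.041 to 0.59 in oligodendrocyte-like and -0.14 to 0.46 in pericyte-like cells. The Lama4 KO over WT ratio of Rbp4 in fibroblast-like cells was 0.643 with the stricter filter. The causes were not tested. Fibroblast-like, ependymal-like and perivascular macrophage-like cells had under 50 cells in a library and were not tested, so their values are limited by counting error and single cells.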

Other observations

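The zones of other list genes varied. Tgm2 held 363 to 676 CPM in vein-like and 110 to 168 CPM in artery-like cells. Adh1, an alcohol dehydrogenase, and Aldh1a3, a retinaldehyde dehydrogenase, were chosen after their values were seen: Adh1 held 23.0 to 39.4 CPM in vein-like and 0.610 to 3.65 CPM in artery-like cells, and Aldh1a3 held 12.8 to 26.0 and 1.31 to 2.81 CPM. Adh5, Rdh14 and Rdh11 differed little. Their pooled levels were 87.1, 21.3 and 12.9 CPM in vein-like and 92.5, 25.6 and 15.3 CPM in artery-like cells. The library ranges overlapped, for Adh5 at 68.4 to 110 CPM in vein-like and 75.9 to 108 CPM in artery-like cells. In the Lama4 KO, Adh5 and Rdh11 stood higher in vein-like than in artery-like cells. Rbp7 had 58 of its 67 endothelial UMIs in artery-like cells. Cyp26b1 in vein-like cells stood at 18.3 CPM in the Lama4 KO against 5.53 and 8.09 CPM in its WT, from 1 KO library.

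Over the 15 cell classes, the gene with the profile most like each member, by Pearson's r of log2(CPM + 1) among 12379 genes, was Fbln5 for Stra6 (0.898), Krt14 for Rbp4 (1.00), Kcne2 for Ttr (0.930), Slc2a13 for Aldh1a1 (0.868), Chrm3 for Aldh1a2 (0.984) and Efhb for Rdh10 (0.888). The points are class means over the same libraries and a few classes carry most of each profile. For Rbp4 the fibroblast-like class alone does, with 286 of 300 UMIs. Genes limited to that class thus have an r near that of Krt14, and the choice among them is not read.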
